A study of Mus musculus with 6 samples.

Results

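The numbered orphan G protein-coupled receptors are the genes whose symbol is Gpr followed directly by a number. Leaving out Gpr17 and Gpr34, 69 of the 25755 genes measured in mouse optic nerve carried such a symbol. RNA was sequenced from the optic nerves of 6 NF1flox/flox;hGFAP-Cre mice, 3 after sham surgery (mice 1, 2 and 3) and 3 after optic nerve crush (ON-CR; mice 4, 5 and 6), all labelled 3 months. In these mice Cre driven by the human GFAP promoter removes Nf1, the neurofibromatosis type 1 tumor suppressor, in neuroglial progenitors, so both groups carried the deletion and no library came from a mouse with intact Nf1. The crush was bilateral, made at 6 weeks of age, and the nerves were taken at 12 weeks of age. The question was how the nerve of these tumor-prone mice differed weeks after injury. The study reports that optic gliomas had formed by that age in nerves of this genotype after ON-CR, relative to sham controls. In this contrast the effects of injury and of tumor thus cannot be told apart. The genes were picked by symbol, but the group was proposed with results of this same contrast in view, so the differences below describe these 6 mice and are no independent test. Values are normalized counts, that is, estimated reads divided by 1 factor per library.

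G protein-coupled receptors span the membrane and, on binding a ligand outside the cell, activate heterotrimeric G proteins inside it. A receptor was numbered as an orphan when its sequence was found before its ligand was known, and several have since been paired with fatty acids, oxysterols, protons or peptides. In nervous tissue the numbered receptors mark different cells: Gpr37 is known from myelinating oligodendrocytes, Gpr37l1 from astrocytes, Gpr84 from activated microglia, Gpr182 from endothelium, and many others from neurons. Some genes that kept the name, such as Gpr107, Gpr108, Gpr137 and Gpr155, encode proteins of the Golgi or the lysosome.

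The promoters of the genes that passed an adjusted p of 0.05 between the groups are given first, since these genes carry the differences described below. The window searched was the 250 bases before the start of transcription in RefSeq (GRCm38.p6), read 5′ to 3′ along the gene, and all 4 genes lie on the reverse strand. The GENCODE annotation starts each of them farther upstream, so only the bases before its first exon are printed. For Gpr37 the whole window lay in that exon, and no sequence is shown. Capitals mark AGGAAG, the core of sites bound by ETS factors, and GGGCGG, the GC box, on either strand, where overlapping boxes were each counted. Both motifs were chosen after the sequences had been seen.
Gpr84, chr15:103310613-103310688: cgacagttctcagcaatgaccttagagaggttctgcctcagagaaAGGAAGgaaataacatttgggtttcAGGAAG
Gpr15, chr16:58719071-58719122: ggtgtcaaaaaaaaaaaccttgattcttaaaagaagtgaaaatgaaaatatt
Gpr155, chr2:73386573-73386730: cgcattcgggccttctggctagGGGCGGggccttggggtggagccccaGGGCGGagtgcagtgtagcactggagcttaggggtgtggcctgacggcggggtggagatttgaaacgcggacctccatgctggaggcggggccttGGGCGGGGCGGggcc

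The 4 windows did not share a composition. That of Gpr84 had a GC content of 46.0%, 3 CG dinucleotides and 3 ETS cores, 2 of them in the printed stretch, and no GC box. That of Gpr15 had a GC content of 31.6%, 1 CG and neither motif. That of Gpr155 had a GC content of 70.4%, 17 CG and 7 GC boxes, 4 of them printed, and that of Gpr37 a GC content of 60.8%, 16 CG, 1 ETS core and 1 GC box. Over 32851 windows of that length, 29.5% held AGGAAG and 32.7% held GGGCGG, against 28.1% and 35.9% of the 64 windows matched to 49 of the receptor genes. A match describes the letters and does not show that a factor binds.

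Some facts of the libraries bear on all the values. The estimated reads per library ran from 17414091 to 23621006, 1 read was worth 0.885 to 1.06 normalized counts, and 65 to 68 of the 69 genes were detected in each library. Nf1 was at 385 ± 55.1 in the sham mice and 411 ± 29.3 in ON-CR mice (mean ± SD, n = 3 each). The 3 ON-CR libraries held Xist, the X inactivation RNA, at 2708 to 6357, and the 3 sham libraries held it at 2.14 to 30.9. The Y-linked gene Ddx3y was at 1291 to 1645 in the sham libraries, at 976 in mouse 4, and at 4.19 and 0 in mice 5 and 6, so that mouse 4 held both transcripts. The labels name 1 mouse per library, while the study combined mice in its samples for PCR. Whether the library labelled mouse 4 held RNA of more than 1 animal cannot be told from these data, and n counts libraries. The sex of the RNA thus moved with the surgery, and the effects of sex and of ON-CR cannot be told apart. Mouse 5 had the highest sum of neuron markers (8956, against 1430 to 4408 in the other 5 mice), and mouse 6 had a sum of B and plasma cell markers of 98667, against 394 to 2430 in the other 5. The sum of 3 airway epithelium markers was 7814, 5275 and 6127 in mice 3, 5 and 6. It was 29.7, 2.7 and 1.0 in mice 1, 2 and 4. Adjusted p without 1 mouse are therefore given, singly or as a range, for the calls that changed.

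Of the 69 receptor genes, 4 differed between ON-CR and sham at an adjusted p of 0.05 or lower (limma, adjusted over all 25755 genes). Gpr84 rose, and Gpr15, Gpr37 and Gpr155 fell. Over all genes 2.1% passed, 0.971% higher and 1.13% lower in ON-CR mice. At an unadjusted p of 0.05, 15 receptor genes passed, 7 higher and 8 lower, beside 15.6% of all genes. With the added requirement of a 2-fold change, the filter named in the methods of the study, 6 genes passed, 4 higher and 2 lower, against 4.66% of all genes (3.17% higher and 1.49% lower). Of these 6, Gpr84, Gpr31c, Gpr101 and Gpr139 were higher and Gpr15 and Gpr180 lower, and Gpr139 was near the floor of 3 reads. The mice of the 2 groups did not overlap for 16 receptor genes, 8 higher and 8 lower, against 21.6% of all genes (10.5% higher and 11% lower). The median log2 fold change, ON-CR minus sham, was 0.14 over the receptor genes and 0.03 over all genes. With 3 mice against 3 an exact permutation test of 1 gene cannot give a p under 0.1, so none was used.

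**Figure D1:**
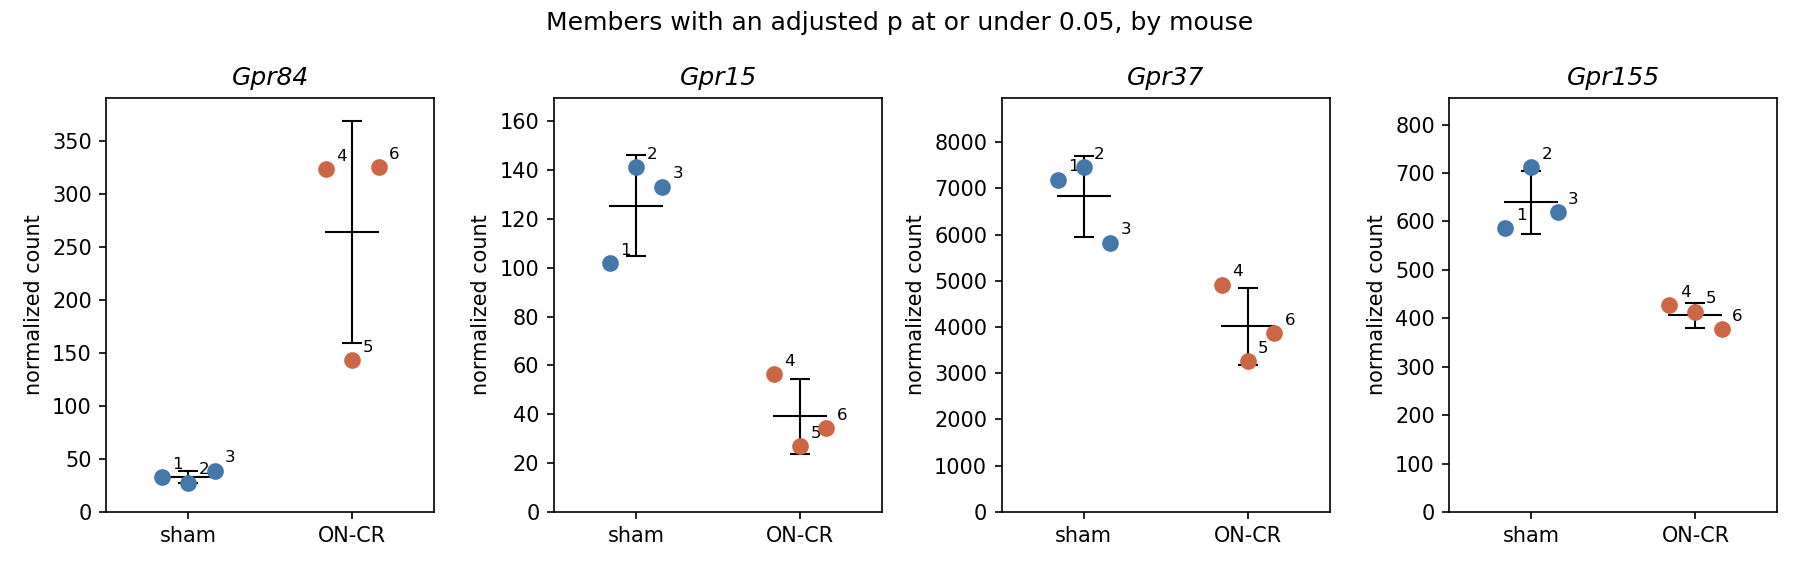
Normalized count of Gpr84, Gpr15, Gpr37 and Gpr155 in each of the 6 mice (points, numbered by mouse), on axes that start at 0, with the group mean and SD (bars, n = 3). The 3 ON-CR mice lay between 143 and 326 for Gpr84, above all 3 sham mice, and below all 3 sham mice for the other genes.

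Of the 25 receptor genes with a mean of at least 100, 9 had an unadjusted p of 0.05 or lower, 7 of them lower in ON-CR mice. The genes of that level as a whole leaned the same way, with 2834 of 12208 at an unadjusted p of 0.05 or lower, 1760 of them lower. Of the 30 genes with a mean between 10 and 100, 24 had a positive difference, beside 52.8% of genes of all levels. Of the 30, 1 passed the adjusted threshold and that 1, Gpr15, was lower. The 14 genes with a mean under 10 gave no call.

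**Figure D2:**
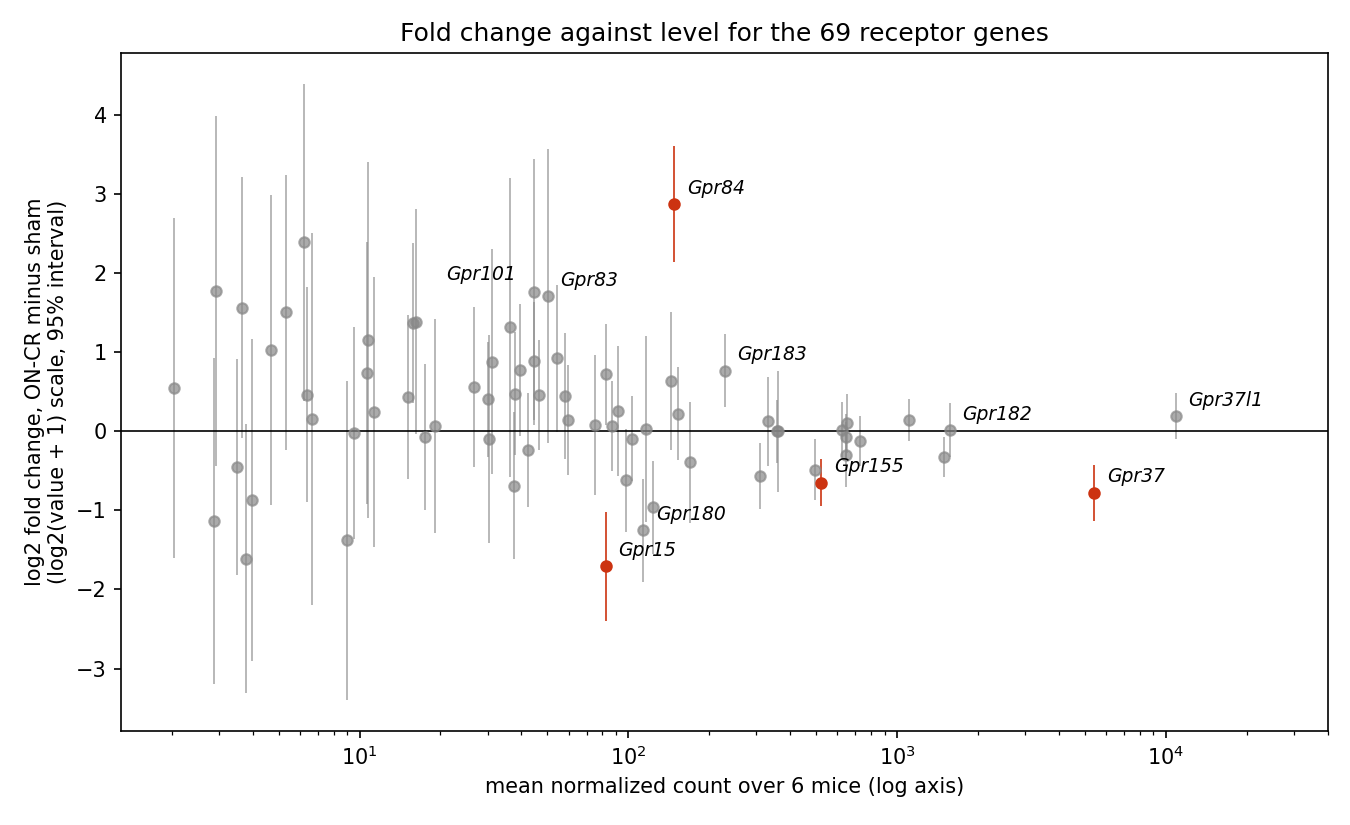
Log2 fold change, ON-CR minus sham, on the log2(value + 1) scale (y axis) against the mean normalized count over the 6 mice (x axis, log scale) for the 69 receptor genes, with 95% intervals; red points passed an adjusted p of 0.05. Intervals widened toward low counts, and Gpr84 at 2.87 and Gpr15 at −1.71 stood farthest from 0 among the red points.

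Gpr84, a receptor for medium-chain fatty acids found on activated microglia and other myeloid cells, lies on chromosome 15 from 103308235 to 103310612 (GRCm38, reverse strand). Its normalized count was 33.0, 27.5 and 38.9 in the sham mice and 323, 143 and 326 in the ON-CR mice. The lowest ON-CR mouse was well above the highest sham mouse, and mouse 5 was the lowest of its group. The mean went from 33.1 ± 5.70 to 264 ± 105 (SD, n = 3 each), 7.97-fold, with a log2 fold change of 2.87 (SE 0.33, 95% interval 2.14 to 3.61) and an adjusted p of 0.00297. Without mouse 6 the log2 fold change was 2.68 with an adjusted p of 0.0518. An antisense gene, Gm49482, overlaps 681 of the 1725 exonic bases of Gpr84, and the libraries do not mark strand. Gm49482 itself was at 3.68 to 11.2, and what reads from the shared stretch add to Gpr84 was not tested.

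Markers of microglia moved with Gpr84. Of 10 genes of activated microglia, 8 rose, among them Cst7, Itgax and Clec7a. Cst7, a cysteine protease inhibitor, was at 12.7, 12.4 and 25.4 in the sham mice and at 622, 385 and 618 in ON-CR mice, again with mouse 5 lowest of the ON-CR mice. The sum of that list, mostly Apoe, was 202527 to 254529 in the sham mice and 181936 to 221803 in ON-CR mice. Of 12 general microglia markers 5 rose, and their sum was 21219 to 27596 in the sham mice and 29104 to 45347 in ON-CR mice; P2ry12 and Tmem119, which mark resting microglia, had point estimates below 0, and none of the 12 was at 0 in any library. By staining, the study found a larger share of cells with Iba1, a microglia protein, in nerves of this genotype after ON-CR. By in situ RNA staining it also reported more cells with Tmem119, whose estimate in whole nerve was below 0 here. In the RNA of whole nerve, more cells of a type and more RNA per cell cannot be told apart. The part of microglia in the Gpr84 difference was not tested.

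Among the 11 receptors for lipids, metabolites and ions that were measured, 10 had positive differences and 1, Gpr55, a negative one. Over all genes, 52.8% of differences were positive. The median log2 fold change of the 11 was 1.03, and Gpr174, Gpr139, Gpr31b and Gpr55 had means under 10. Gpr84 was the only one called. In 4 of them, Gpr84, Gpr183, Gpr31c and Gpr174, all ON-CR mice were above all sham mice, as they were for 10.5% of all genes.

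Gpr183, the receptor through which oxysterols guide the migration of immune cells, lies on chromosome 14 from 121952551 to 121965195. Its count was 188, 181 and 137 in the sham mice and 297, 226 and 345 in ON-CR mice, without overlap. The log2 fold change was 0.77 (SE 0.21, 95% interval 0.31 to 1.23) with an adjusted p of 0.096. The call depended on the processing and on the mice. The adjusted p was 0.0453 with scaling by library size alone, 0.028 with voom and sample quality weights, and 0.0345 without mouse 5.

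The enzymes that make and break the Gpr183 ligand were measured in the same libraries. Ch25h, the cholesterol 25-hydroxylase that starts its synthesis, was at 29.5, 36.3 and 28.2 in the sham mice and at 242, 110 and 139 in ON-CR mice. It rose by a log2 fold change of 2.28 (SE 0.32) with an adjusted p of 0.00661, which was 0.0709 without mouse 6. Cyp7b1, which adds the second hydroxyl group, was at 438, 418 and 476 in the sham mice and at 683, 655 and 780 in ON-CR mice. Its log2 fold change was 0.67 (SE 0.13) with an adjusted p of 0.031, and the adjusted p was 0.067 to 0.173 in each set without 1 mouse except that without mouse 5 (0.0259). Hsd3b7, the enzyme that inactivates the ligand, was at 533, 478 and 352 in the sham mice and at 484, 416 and 629 in ON-CR mice, so the groups overlapped. Cyp27a1, which makes another oxysterol, was at 591, 682 and 484 in the sham mice and at 497, 333 and 367 in ON-CR mice. This was a log2 fold change of −0.56 (SE 0.19) with an adjusted p of 0.173, and mouse 4 lay within the sham range. Gpr183, Ch25h and Cyp7b1 were thus higher in each ON-CR mouse than in each sham mouse. Exons of Ch25h and of Hsd3b7 overlap other annotated genes, whose reads cannot be told apart from theirs where they overlap. No ligand was measured.

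**Figure D3:**
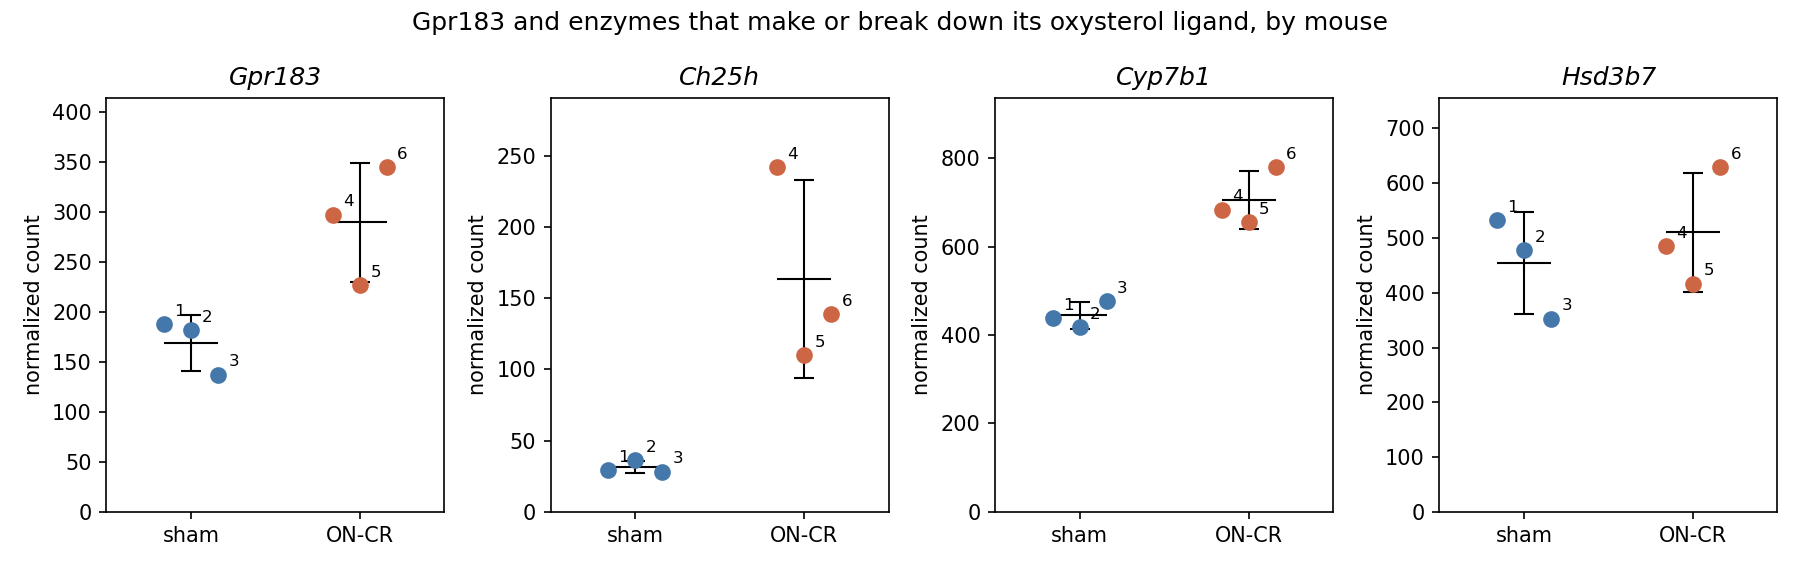
Normalized counts of Gpr183, of Ch25h and Cyp7b1, which make its ligand, and of Hsd3b7, which inactivates it, in each of the 6 mice, with the group mean and SD (bars, n = 3). The groups are apart for the first 3 genes and overlap for Hsd3b7.

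Other receptors of this kind were scarcer. Gpr31c, close in sequence to a receptor for a hydroxy fatty acid, was at 7.43, 6.37 and 11.3 in the sham mice and at 28.7, 16.4 and 24.3 in ON-CR mice. Its log2 fold change was 1.37 (SE 0.45) with an adjusted p of 0.175. Gpr35, which responds to kynurenic acid, was at 30.8, 31.9 and 40.4 in the sham mice and at 58.8, 37.7 and 126 in ON-CR mice, where mouse 5 fell inside the sham range. Gpr18, a receptor of lymphocytes and other immune cells, was at 22.3, 3.54 and 33.8 in the sham mice and at 33.9, 13.6 and 110 in ON-CR mice. Mouse 6 was thus highest for Gpr35 and Gpr18. Its library also had the highest sums of B and plasma cell markers, of T and NK cell markers (1678) and of microglia markers (45347). The part of these cells was not tested. Gpr174 was at 3 reads or fewer in all sham libraries.

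The proton-sensing receptors, which couple a fall in extracellular pH to G proteins, gave no call. Gpr4, the endothelial member, was at 329, 444 and 333 in the sham mice and at 301, 235 and 211 in ON-CR mice. Every ON-CR mouse was below every sham mouse, with a log2 fold change of −0.57 and an adjusted p of 0.173, while the sum of 6 endothelial markers was 2575 to 2976 in the sham mice and 2273 to 3076 in ON-CR mice. None of the 6 was called. Tek (log2 fold change −0.64, adjusted p 0.0895) and Cdh5 (−0.34, adjusted p 0.325) were, as Gpr4 was, lower in each ON-CR mouse than in each sham mouse. The groups overlapped for Kdr (log2 fold change −0.30), Pecam1 (−0.03), Flt1 (0.08) and Cldn5 (0.10). The part of endothelial cells in the Gpr4 values was not tested. Gpr65, found on microglia and lymphocytes, was at 133, 78.8 and 110 in the sham mice and at 194, 81.8 and 271 in ON-CR mice. Mouse 5 lay within the sham range, and without it the log2 fold change was 1.13 with an adjusted p of 0.0465, against 0.63 and 0.484 with all mice. Gpr132 (adjusted p 0.639) was highest in mouse 6 too, at 24.9.

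Over the receptors for protons, for lipids, metabolites and ions, and for immune peptides together, 12 of 21 had their highest value in mouse 6 (57.1%). Over all genes, 20% had their highest value in that mouse.

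Gpr15, a chemoattractant receptor that guides T cells to the gut, lies on chromosome 16 from 58717433 to 58719070. Its count was 102, 141 and 133 in the sham mice and 56.4, 27.0 and 34.2 in ON-CR mice. The groups were apart, with mean values of 125 ± 20.7 and 39.2 ± 15.3 (SD, n = 3 each). This was a log2 fold change of −1.71 (SE 0.31, 95% interval −2.40 to −1.02) with an adjusted p of 0.0236. T and NK cell markers did not fall with it, since their sum was 281 to 769 in the sham mice and 245 to 1678 in ON-CR mice, and none of the 8 was called. The neighbouring gene Cpox, a heme synthesis enzyme, overlaps 204 of the 1638 exonic bases of Gpr15 on the other strand and was far more abundant, at 1865, 2211 and 1635 in the sham mice and 1570, 917 and 1263 in ON-CR mice. Since the kit does not mark strand, reads from the shared stretch could count for either gene, and what they add to Gpr15 was not tested. The adjusted p of Gpr15 was 0.0688, 0.145 and 0.0992 without sham mice 1, 2 and 3, and 0.153 without mouse 6.

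The other immune and peptide receptors gave no call. Gpr171, a receptor for a ProSAAS-derived peptide, was at 67.9, 50.5 and 64.8 in the sham mice and at 69.8, 133 and 109 in ON-CR mice, which were just above the sham range for mouse 4. Its log2 fold change was 0.72 with an adjusted p of 0.259. Gpr141b, at 0 to 4.15 in ON-CR mice and 4.43 to 8.49 in sham mice, was apart in the other direction but near the floor of 3 reads. The annotation used here lists Gpr141b as a long noncoding RNA.

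Gpr37 and Gpr37l1, related receptors for which prosaposin has been put forward as a ligand, were the most abundant of the 69 and together made up 54.5% to 59.4% of their summed normalized count in each library. They differed in direction. Gpr37, on chromosome 6 from 25665878 to 25690729, was at 7192, 7463 and 5822 in the sham mice and at 4915, 3260 and 3864 in ON-CR mice, without overlap. It fell from 6825 ± 880 to 4013 ± 837 (SD, n = 3 each), with a log2 fold change of −0.78 (SE 0.16, 95% interval −1.13 to −0.42) and an adjusted p of 0.0388. Its share of the summed count of the 69 genes was 22.0% to 23.9% over the sham mice and no more than 16.7% over the ON-CR mice. Gpr37l1 was at 10028, 11844 and 8720 in the sham mice and at 12001, 11693 and 10984 in ON-CR mice. Those ranges overlapped, with a log2 fold change of 0.19 (SE 0.13, 95% interval −0.10 to 0.48) and an adjusted p of 0.525.

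Myelin genes moved with Gpr37. Of 10 markers of mature oligodendrocytes 8 fell, and their sum was 1275210 to 1825780 in the sham mice and 618563 to 731766 in ON-CR mice. The ON-CR mean of that sum was 42.1% of the sham mean, against 58.8% for Gpr37, and no marker of the list was at 0. Gpr62, another receptor of mature oligodendrocytes, was at 133, 156 and 74.2 in the sham mice and at 85.8, 67.1 and 72.7 in ON-CR mice, with an adjusted p of 0.345. Astrocyte markers, which share their cell type with Gpr37l1, summed to 223468 to 275552 in the sham mice and 289464 to 320040 in ON-CR mice, mostly through Gfap. Without Gfap the other 8 summed to 124282 to 153367 in the sham mice and 117083 to 132999 in ON-CR mice. Of the 9, S100b fell and none passed the threshold upward. Gfap, Aqp4 and Slc1a3 were higher in each ON-CR mouse than in each sham mouse. S100b and Aldoc (log2 fold change −0.62, adjusted p 0.095) were lower in each. The part of these cells in the Gpr37 values was not tested. The call of Gpr37 was lost without sham mouse 1, 2 or 3 (adjusted p 0.146, 0.208 and 0.0598) and without mouse 6 (0.211). Psap, which encodes prosaposin, was at 14573 to 15325 in the sham mice and at 15461 to 19771 in ON-CR mice and was not called.

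The 11 genes grouped as proteins of internal membranes or of another fold included 1 called gene. Gpr137b-ps among them is annotated as a transcribed pseudogene. Gpr155, a lysosomal cholesterol sensor, lies on chromosome 2 from 73341506 to 73386572 and was at 587, 713 and 620 in the sham mice and at 427, 414 and 378 in ON-CR mice. The groups were apart by more than the spread within either. The log2 fold change was −0.65 (SE 0.13) with an adjusted p of 0.0388. The call was at the margin: the adjusted p was 0.0829 with scaling by library size alone and 0.0611 with voom, and it was 0.0679 to 0.209 in every set without 1 mouse except that without mouse 5 (0.0422).

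Gpr180, a membrane protein not known to couple to G proteins, was at 150, 207 and 123 in the sham mice and at 88.7, 46.1 and 67.5 in ON-CR mice. The groups did not overlap, and the log2 fold change was −1.25 (SE 0.29) with an adjusted p of 0.0624. It passed with a robust fit (0.0395) and without mouse 4 (0.0456). Gpr108, a Golgi protein, was at 1798, 1647 and 1567 in the sham mice and at 1293, 1254 and 1451 in ON-CR mice, with a log2 fold change of −0.33 (SE 0.11) and an adjusted p of 0.194. Its relative Gpr107 was at 982 to 1169 in the sham mice and 1112 to 1244 in ON-CR mice, with a log2 fold change of 0.14 (SE 0.12) and an adjusted p of 0.626. Gpr137, a lysosomal protein, had a log2 fold change of −0.13 (SE 0.14, adjusted p 0.729), and Gpr89, an anion channel of the Golgi, one of −0.07 (SE 0.13, adjusted p 0.857). Gpr137b and its near-identical copy Gpr137b-ps share reads, so only their sum was compared. That sum was 933 to 1173 in the sham mice and 868 to 998 in ON-CR mice, which overlapped.

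The largest role group, 28 other rhodopsin-like receptors, gave no call. Gpr182, the endothelial receptor that binds chemokines without signalling, was at 1342, 1676 and 1659 in the sham mice and at 1784, 1281 and 1685 in ON-CR mice. Its log2 fold change was 0.01 (SE 0.15, 95% interval −0.32 to 0.35), so a change of 2-fold in either direction lay outside the interval. Gpr146, a receptor tied to cholesterol metabolism in liver, had a log2 fold change of 0.10 (SE 0.17, adjusted p 0.832). Gpr176, a receptor of the circadian clock, was at 162, 189 and 135 in the sham mice and at 104, 93.3 and 57.1 in ON-CR mice. All ON-CR mice were below all sham mice, and the log2 fold change was −0.96 (SE 0.26) with an adjusted p of 0.101.

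Several receptors known from neurons were highest in mouse 5. Gpr101, a receptor of hypothalamus and pituitary, was at 36.1, 4.43 and 18.8 in the sham mice and at 29.9, 145 and 33.2 in ON-CR mice. Its log2 fold change was 1.76 (SE 0.76) with an adjusted p of 0.297, and without mouse 5 it was 1.04. Gpr83, a receptor of hypothalamic and other neurons, was at 49.9, 10.6 and 6.57 in the sham mice and at 18.9, 171 and 44.6 in ON-CR mice. Mice 4 and 6 lay within the sham range for Gpr83, and for Gpr101 too. Gpr22 was at 8.49, 38.1 and 16.9 in the sham mice and at 17.0, 78.6 and 28.0 in ON-CR mice, and Gpr26 reached 51.4 in mouse 5 against 5.31 to 15.0 in the other 5 mice. In all, 12 of the 69 genes were over 2 times higher in mouse 5 than in any other mouse, 4 were so in mouse 6 and 1 in mouse 2. Of the 28 receptors of this group, 15 were highest in mouse 5 (53.6%), against 20.6% of all genes. Beside them, the sum of 6 hypothalamus markers was 2512 in mouse 5 and 340 to 1140 in the other mice, and that of 5 retinal ganglion cell genes was 2672 against 615 to 948. All 8 neuron markers were highest in mouse 5, by a margin for Snap25 (3193 against 394 to 1730), Stmn2 (2384 against 347 to 1155), Syt1 (1330 against 189 to 327) and Rbfox3 (147 against 31.8 or less), and by little for Nrgn and Slc17a7. Whether neurons taken with that nerve account for these receptor values was not tested.

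**Figure D4:**
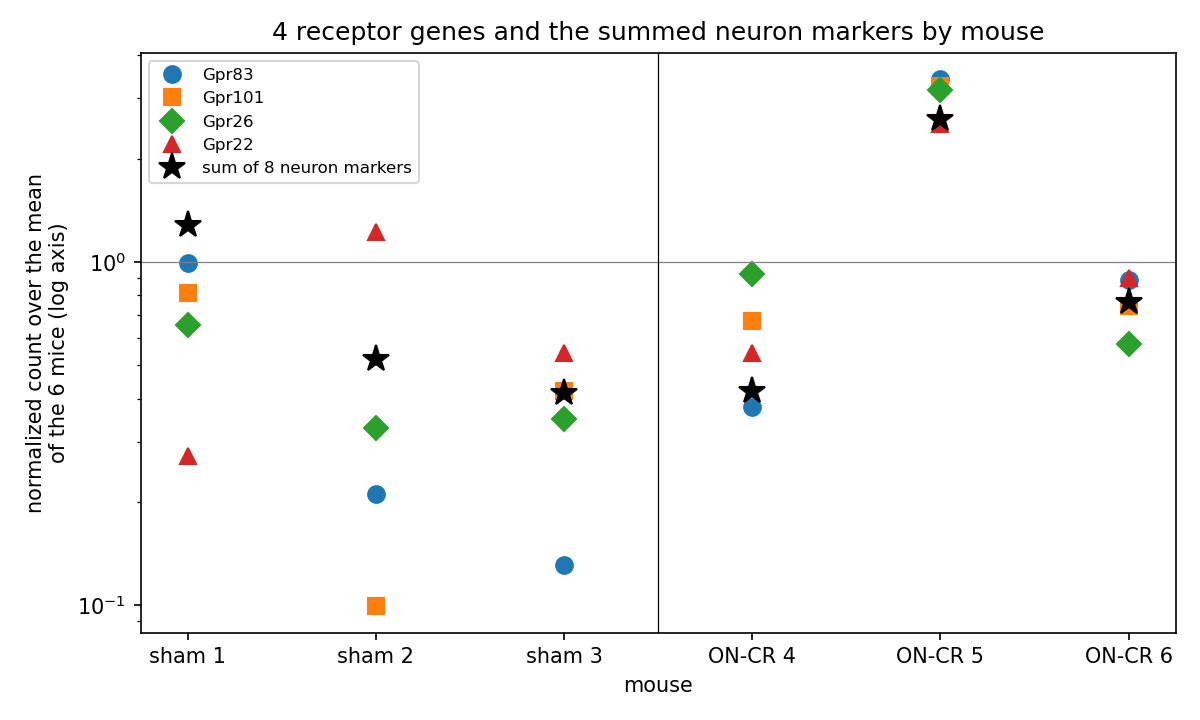
Gpr83, Gpr101, Gpr26, Gpr22 and the sum of 8 neuron markers in each of the 6 mice, each divided by its mean over the 6 mice (y axis, log scale); the 4 genes were chosen after their values were seen. All 5 series are highest in mouse 5, and the other ON-CR mice lie among or near the sham mice.

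Gpr3, Gpr6 and Gpr12, which raise cAMP without a ligand, were at 0 to 40.9 in all libraries and gave no call. Gpr3 was at 25.5, 25.7 and 25.4 in the sham mice and at 40.9, 28.3 and 34.3 in ON-CR mice, a small separation with an adjusted p of 0.604. The class C receptors Gpr158 and Gpr179, of the family of the glutamate receptors, gave no call either. Gpr158 was at 61.1 to 71.4 in sham mice, and at 47.9, 147 and 51.9 in ON-CR mice, again with mouse 5 highest.

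**Figure D5:**
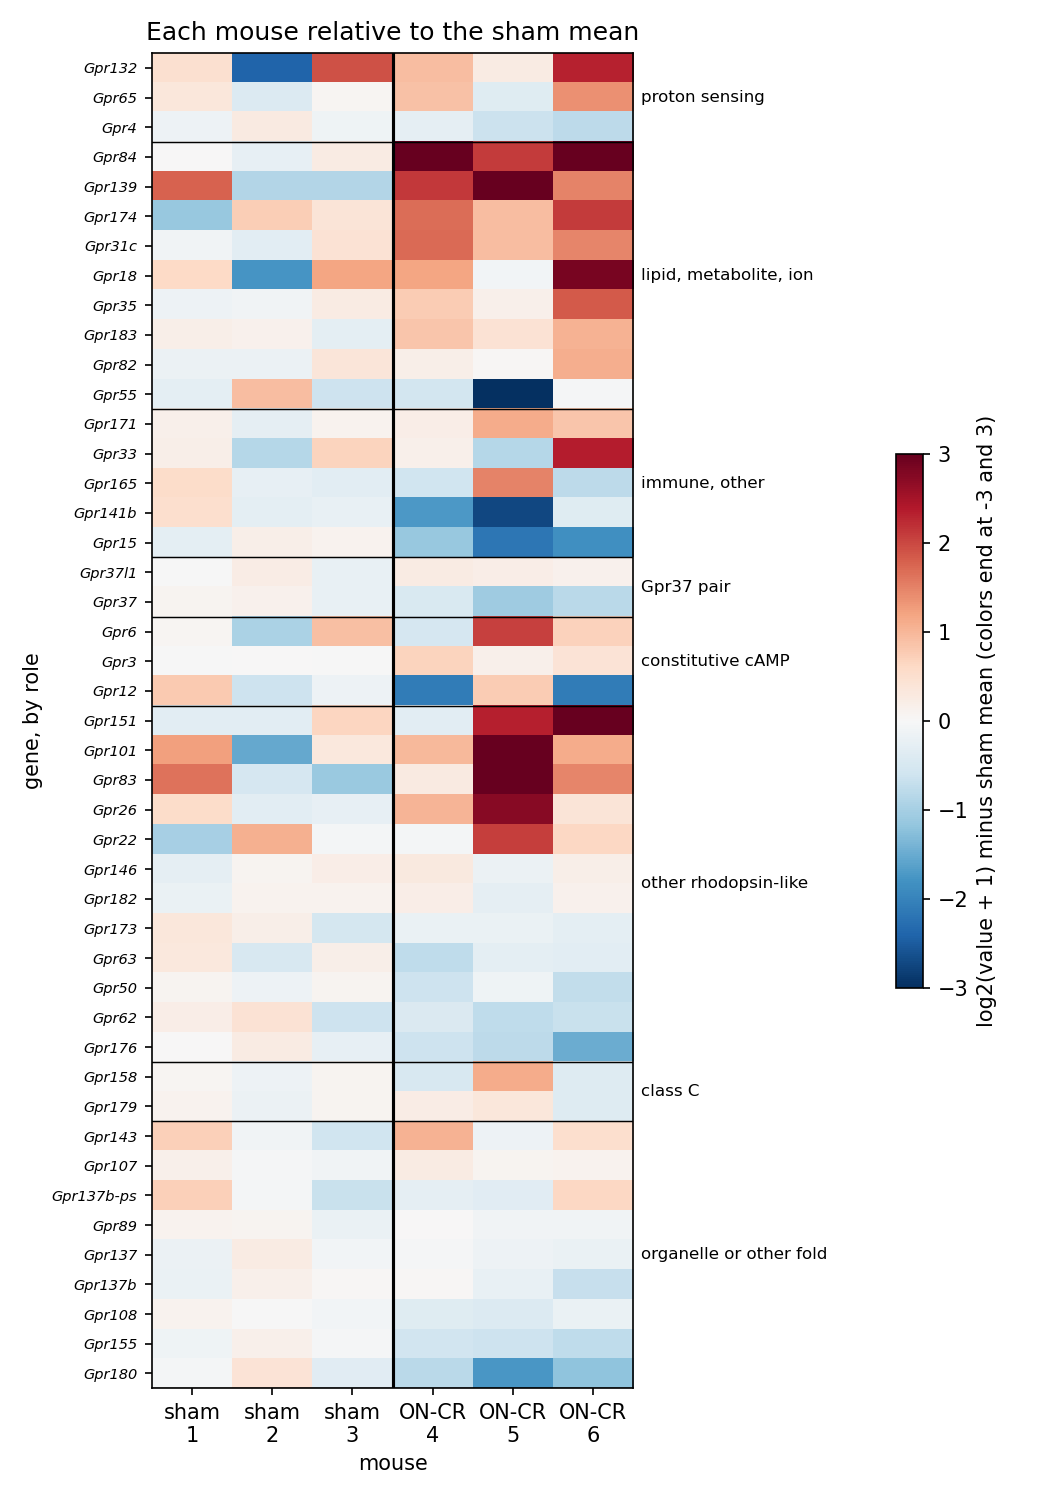
The receptor genes described (rows, grouped by role) in each mouse (columns), as log2(value + 1) minus its sham mean, with colors ending at −3 and 3. Gpr84 is higher in all 3 ON-CR mice, Gpr101, Gpr83 and Gpr26 are highest in mouse 5, and Gpr15, Gpr37, Gpr155 and Gpr180 are lower in all 3 ON-CR mice.

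Set per kilobase of exon, which allows genes to be ranked, Gpr37l1 was highest at 4494 normalized counts per kilobase in the sham mice and 5094 in ON-CR mice. Gpr37 was next, at 1125 and 661, then Gpr108 at 584 and 466 and Gpr182 at 394 and 400. Gpr84 went from 19.2 to 153 on this scale, and Gpr183 from 58.5 to 100, while Gpr15 went from 76.6 to 23.9. At the other end, 12 of the 69 genes were at 0 in some library, and Gpr33, Gpr151 and Gpr174 were at 3 reads or fewer in every sham library and Gpr63 in every ON-CR library.

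Receptors act through G proteins and are shut off by kinases, arrestins and RGS proteins, and 74 such genes and ligand genes were measured. Of these, 7 passed the adjusted threshold (9.46%, beside 2.1% of all genes), 5 higher and 2 lower. Among all genes with a mean of at least 100, 3.86% passed. The means of the partner genes ran from 7.83 to 16159. Besides Ch25h and Cyp7b1, the RGS genes Rgs4, Rgs2 and Rgs10 rose. RGS proteins speed the return of G alpha subunits to the inactive state. Of the 19 measured, 15 had positive differences, beside 52.8% of all genes. Rgs4 averaged 513 ± 46.5 after sham surgery and 1104 ± 73.4 after ON-CR (SD, n = 3 each). Its log2 fold change was 1.11 (SE 0.13) with an adjusted p of 0.00283, and it kept the call without each of the 6 mice. Rgs2 went from 361 ± 32.2 to 710 ± 136 and Rgs10 from 635 ± 55.6 to 1055 ± 201, with adjusted p of 0.020 and 0.0485.

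The 2 partners that fell were G protein subunits. Gnb2, a beta subunit, went from 1218 ± 138 to 748 ± 31.2 (log2 fold change −0.70, adjusted p 0.021), and Gnai1, an inhibitory alpha subunit, from 1161 ± 141 to 722 ± 115 (log2 fold change −0.69, adjusted p 0.0462). The other 14 alpha subunits and 15 beta and gamma subunits were not called, nor were the 8 kinases and arrestins or the 10 adenylyl cyclases. Without mouse 6 Rgs4 alone was called. Without sham mouse 1, 2 or 3 or mouse 6, the adjusted p of Rgs2 was 0.0664 to 0.148. That of Rgs10 was 0.106 to 0.222 in every set without 1 mouse except that without mouse 5 (0.00868). That of Gnb2 was 0.0747, 0.132 and 0.131 without sham mouse 1, sham mouse 2 and mouse 6, and that of Gnai1 was 0.0666 to 0.231 in every set without 1 mouse except that without mouse 4 (0.0311). Counting changes of processing too, the calls of Gnai1 and Rgs10 were lost in 8 and 6 of 15 alternatives.

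Of the 7 receptor genes on the X chromosome, Gpr50, Gpr82, Gpr101, Gpr143, Gpr165, Gpr173 and Gpr174, none was called and 2 had an unadjusted p of 0.05 or lower. Gpr50, an orphan relative of the melatonin receptors, was at 606, 513 and 600 in the sham mice and at 374, 523 and 345 in ON-CR mice. Mouse 5 lay in the sham range, with an adjusted p of 0.204 in all mice and 0.0408 without mouse 5. Adhesion receptors, another family of G protein-coupled receptors with many orphans, served for comparison: none of the 23 measured was called, 5 had an unadjusted p of 0.05 or lower, and their median log2 fold change was 0.17. The difference between the families was not tested.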

How the data were processed

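RNA from the optic nerves of 6 mice (10 ng per library, amplified with a SMARTer kit that does not mark strand) was sequenced on a HiSeq. The authors aligned the reads with DRAGEN to mm10 with Ensembl genes and, in Partek Flow 10.0, counted and median-normalized them. The deposited signal is the normalized count per gene. It does not hold whole reads (65.1% to 67.7% of values were whole within 0.01 of a read), so the main test used no count model. The lowest total of any gene was 10 reads.

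Groups came from the labels. limma 3.58.1 in R 4.3.3 (linear model, empirical Bayes with a trend) was fitted to log2(value + 1) of all 25755 genes, ON-CR minus sham, with Benjamini-Hochberg adjustment over all of them; fold changes on this scale understate changes of low genes. The design had foreseen this test for values that were not raw counts. On simulated data with 200 genes changed 4-fold among 25755, 196 were called with 9 false calls. The simulation gave all genes the same dispersion (0.05) and changed no gene of the lowest counts. Smaller changes, such as those of Gpr37 and Gpr155, and differences of sex or tissue between libraries were not simulated. P-values measure the spread between mice. Alternatives changed the pseudocount, scaling, low-count filter and fit, or left out 1 mouse. The members, gene lists and tests were chosen with earlier results of these data known. Full statistics were given to members with an adjusted p of 0.05 or lower, to those past an unadjusted p of 0.05 and 2-fold with a mean of at least 10, to the 8 of highest mean, and to called partners. Positions are GENCODE vM21 (GRCm38), matched for 67 of the 69 genes; 20 share exon bases with another gene, and no strand could be assigned to reads there. The floor was 3 reads (2.66 to 3.18 normalized counts) and covers counting error only. Values of some members are not reported here.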

Additional observations from a re-analysis of the deposited data

How the results depend on the processing

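The 4 receptor genes passed the adjusted threshold under each alternative pseudocount and low-count filter, under upper-quartile scaling and under TMM scaling. A robust fit added Gpr180. Scaling by library size alone had Gpr183 in place of Gpr155. So did voom with sample quality weights, which was run on rounded reads and carries that scaling, but also weights the samples. Leaving out 1 mouse gave 0 to 7 called receptor genes: Gpr84 alone without any 1 sham mouse, 4 without mouse 4, 7 without mouse 5, and 0 without mouse 6, where limma gave 13 at an unadjusted p under 0.05. The count past 2-fold ranged from 5 to 10 without 1 mouse (main 6, 10 without mouse 5) and was 3 among genes with 10 reads in every library, where fewer genes were tested. The partner count ranged from 1 to 9 (main 7), with 9 without mouse 5 and 1 without mouse 6. The median log2 fold change of the receptor genes, 0.14, was 0.25 with library size alone and 0.23 with voom, where the median of all genes was 0.15 and 0.15, and 0.029 among genes with 10 reads in every library; it was 0.09 to 0.22 without 1 mouse. Among the named genes that were recomputed (those with full statistics and some others), signs turned for 4, each near 0: Gpr137 (0.0024 with library size alone, −0.21 to 0.0027 without 1 mouse), Gpr89 (0.061 with library size alone, 0.059 with voom), Gpr146 (−0.040 to 0.23 without 1 mouse) and Gpr182 (−0.089 to 0.16 without 1 mouse, −0.078 without mouse 4 and −0.037 without mouse 6). The cause of these changes was not tested. No paired analysis was possible because the mice of the 2 groups carry different numbers.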
